A study of Mus musculus with 4 samples.

Results

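The prostanoid receptors are the cell-surface receptors for prostaglandins and thromboxane. All 8 receptor genes of the classical family, Ptger1, Ptger2, Ptger3, Ptger4, Ptgfr, Ptgir, Ptgdr and Tbxa2r, were read from the gene name given to each probe on a Whole Mouse Genome array. They were covered by 9 probes, with 2 probes for Ptger3 and 1 for each of the other genes, of 39423 probes and 22368 named genes in all. The arrays compared the colon of Pla2g3-/- mice, which carry a null allele of the secreted phospholipase A2 gene Pla2g3 throughout the body, with that of littermate Pla2g3+/+ mice. One group of each genotype received saline as the vehicle, and the other received azoxymethane (AOM), a colon carcinogen, at 10 mg/kg body weight by weekly intraperitoneal injection over 6 weeks and was killed 28 weeks after the last dose. All mice were male, 42 weeks old and on a B6.129 background at backcross generation 3.

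RNA was pooled within each group, from 3 to 5 mice by the deposited design text, and each pool was hybridized to 1 one-color (Cy3) array, so there were no replicates and no test between groups was possible. The AOM pools are labelled as colorectal cancer tissue, while the study's methods describe the whole descending colon. How much tumor each pool held was not given. Signals are stated as a percentage of the array's 75th percentile signal. The ± value is the error that the scanning software gives to the spot on that array. It does not cover the spread between mice. A spot that the software did not call well above background gives a bound on a ratio rather than a ratio. Differences past 2-fold were counted, and the counts are to be read against the share of all genes past 2-fold in the same pair of arrays.

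The targeted gene did not follow the genotype labels. The brightest of the 3 Pla2g3 probes read 53.0 on the vehicle array labelled Pla2g3+/+, 65.3 on the vehicle array labelled Pla2g3-/-, 23.2 on the AOM array labelled Pla2g3+/+ and 139 on the AOM array labelled Pla2g3-/-. Whether the probes lie within the deleted part of the gene was not given, so genotypes are named below as labelled. The AOM arrays differed in many genes, with 28.0% of all genes past 2-fold between them. Among these was the mast cell protease Mcpt1, one of the most different of its marker list. Mcpt1 read 6.14 and 8.52 on the vehicle arrays labelled Pla2g3+/+ and Pla2g3-/-. It read 811 on the AOM array labelled Pla2g3+/+ and 2.73 on the AOM array labelled Pla2g3-/-. Of the 10 mast cell markers, 8 were past 2-fold lower on the AOM array labelled Pla2g3-/- and 2 had a log2 ratio above 0. The genotype labels were not tested by these genes. From 64.8% to 69.4% of spots were well above background on each array and no spot was saturated. Over 399 probes spotted more than once, the median SD between spots was 0.066 to 0.079 on the log2 scale. Markers of smooth muscle, absorptive colonocytes and goblet cells were low on the AOM array labelled Pla2g3+/+, and pancreatic acinar markers were high on the vehicle array labelled Pla2g3-/-. These values are given beside the receptors concerned. In pooled tissue, fewer cells of a type and less RNA per cell cannot be told apart.

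Prostanoids are made from arachidonic acid, which phospholipases A2 release from membranes, by the cyclooxygenases and a set of terminal synthases. They act through G protein-coupled receptors: EP2 (Ptger2), EP4 (Ptger4), DP1 (Ptgdr) and IP (Ptgir) couple to Gs and raise cyclic AMP, EP1 (Ptger1), FP (Ptgfr) and TP (Tbxa2r) act largely through Gq and calcium, and EP3 (Ptger3) couples mainly to Gi and lowers cyclic AMP. In the intestine, prostaglandin E2 and its EP receptors are known for their part in epithelial repair, secretion, muscle contraction and the growth of polyps.

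The probes that carried the main differences are shown here 5′ to 3′ as printed on the array, with positions on mouse build mm9. The 2 Ptger3 probes start 39464 bases apart on the plus strand of chromosome 3, at chr3:157268044-157268103 for the upstream probe and chr3:157307508-157307567 for the downstream probe, so they read separate stretches of the gene. The upstream probe is given whole, and its 60 bases hold no stop codon in 2 of the 3 forward frames. A forward frame without a stop codon was present in 5 of the 9 receptor probes and in 79.6% of all 60-base probes. The others are given as a stretch of 30 bases, from the start of the probe for Ptger3, Ptger2 (chr14:45622004-45622063, plus strand) and Tbxa2r (chr10:80797520-80797579, plus strand), and from its end for Ptgfr (chr3:151464323-151464382, minus strand). Capitals mark AATAAA, the usual polyadenylation signal, which the Ptgfr probe ends with.
Ptger3 upstream probe: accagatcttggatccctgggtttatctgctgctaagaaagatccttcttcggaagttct
Ptger3 downstream probe: ctaaatgttcagctagagctgttaaaagga
Ptger2: taaatgcagtcagaccaaatgaaattcatt
Tbxa2r: tgagtgcttggtggactaaggacggagcta
Ptgfr: aatctgtgtggcttacgttcttggAATAAA
AATAAA, read on the printed strand, was present in 2 of the 9 receptor probes, those of Ptgfr and Ptgdr, and in 12.6% of all 60-base probes on the array. Both receptors were not well above background on at least 3 of the 4 arrays.

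Of the 8 receptors, Ptger1, Ptger2, Ptger4, Ptgir and Tbxa2r were well above background on all 4 arrays. Ptger3 was well above background on every array except the AOM array labelled Pla2g3+/+, Ptgfr only on the AOM array labelled Pla2g3-/-, and Ptgdr on none. The plot of receptor signals shows each probe on its own scale.

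**Figure D1:**
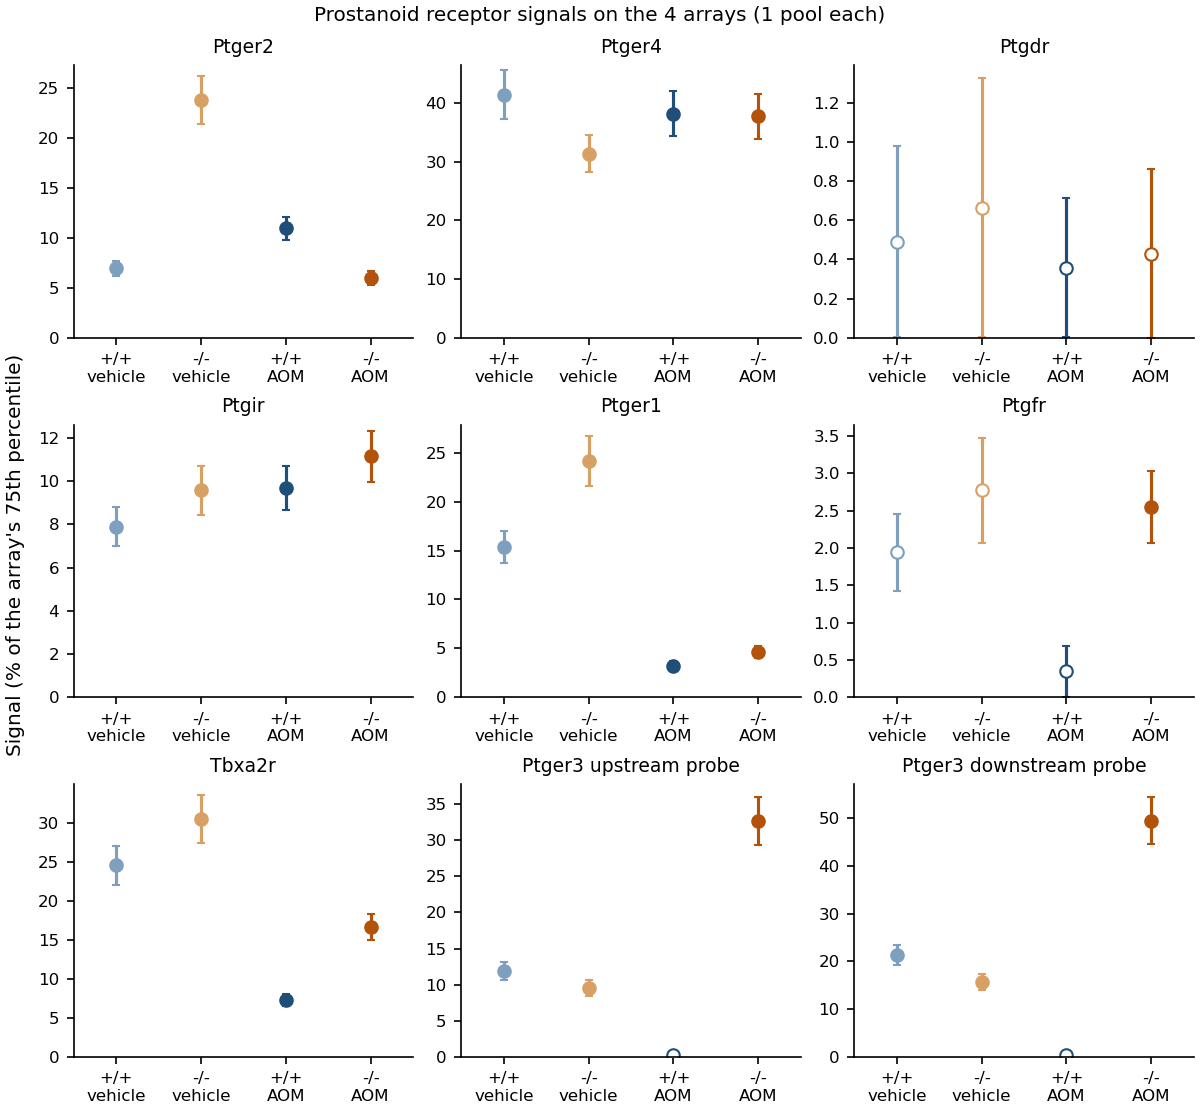
Signal of each of the 9 receptor probes on the 4 arrays, as a percentage of the array's 75th percentile; each panel has its own axis from 0, bars are the software's spot error, and open circles are spots not well above background. Ptger3 read 0.314 (downstream probe) on the AOM array labelled Pla2g3+/+ against 49.4 on the AOM array labelled Pla2g3-/-, while Ptger2 was highest, at 23.8, on the vehicle array labelled Pla2g3-/-.

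Among the Gs-coupled receptors, Ptger2 differed most between arrays. EP2 is the inducible receptor for prostaglandin E2 in many tissues. Its signal was 6.94 ± 0.797 on the vehicle array labelled Pla2g3+/+, 23.8 ± 2.44 on the vehicle array labelled Pla2g3-/-, 11.0 ± 1.14 on the AOM array labelled Pla2g3+/+ and 6.02 ± 0.698 on the AOM array labelled Pla2g3-/-. The vehicle array labelled Pla2g3-/- thus stood above the other three, 2 of which, the vehicle array labelled Pla2g3+/+ and the AOM array labelled Pla2g3-/-, lay within about the sum of their spot errors. Between vehicle pools Ptger2 was 3.43-fold higher in the pool labelled Pla2g3-/-, a log2 ratio of 1.78 ± 0.222 (spot error), and 144 genes, or 0.878% of the 16395 with a ratio, had a higher one. Between AOM pools the direction was the other, with Ptger2 1.82-fold lower in the pool labelled Pla2g3-/-. The log2 ratio between genotypes changed by -2.64 ± 0.316 from vehicle to AOM, a change larger than the spot error, with no measure of the spread between mice.

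The other Gs-coupled receptors with a signal varied little. Ptger4, the EP4 receptor, read 41.4 ± 4.16, 31.4 ± 3.20, 38.2 ± 3.83 and 37.7 ± 3.79 on the vehicle arrays labelled Pla2g3+/+ and Pla2g3-/- and the AOM arrays in the same order. Neighbouring levels overlapped within their spot errors and only the vehicle array labelled Pla2g3-/- stood somewhat lower. Ptgir, the prostacyclin receptor of blood vessels and platelets, read 7.88 ± 0.910, 9.58 ± 1.14, 9.68 ± 1.02 and 11.2 ± 1.18 in that order, and no 2 neighbouring levels differed by more than the sum of their errors. Ptgdr, the DP1 receptor for prostaglandin D2, read 0.490, 0.664, 0.357 and 0.430, all not well above background, so it has no ratio in any comparison. A level below these limits is not evidence that the receptor was absent.

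Among the Gq-coupled receptors, the scaled signals of Ptger1 and Tbxa2r were lower on both AOM arrays than on both vehicle arrays. Ptger1, the EP1 receptor, read 15.4 ± 1.62 and 24.1 ± 2.51 on the vehicle arrays labelled Pla2g3+/+ and Pla2g3-/-, against 3.18 ± 0.485 and 4.62 ± 0.636 on the AOM arrays. The vehicle and AOM levels did not overlap, and in both treatments the array labelled Pla2g3-/- was the higher, by 1.57-fold after vehicle and 1.45-fold after AOM. Tbxa2r, the thromboxane receptor of smooth muscle and platelets, read 24.5 ± 2.48 and 30.5 ± 3.09 on the vehicle arrays and 7.26 ± 0.771 and 16.6 ± 1.69 on the AOM arrays. The array labelled Pla2g3-/- was again the higher, by 2.29-fold after AOM (log2 1.20 ± 0.212) against a log2 ratio of 0.31 ± 0.206 after vehicle. Ptgfr, the prostaglandin F receptor, read 1.94, 2.77, 0.348 and 2.55 ± 0.478. The last alone was well above background. It was 2.03-fold above 1.25, the lowest signal well above background on the other AOM array, with its spot error left out. On the vehicle arrays Ptgfr read above the matching lowest signals, 1.66 and 2.27, and was still not called. The 2.03-fold is therefore not a strict bound.

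Ptger3, the Gi-coupled EP3 receptor, had the widest ratios of the family in both comparisons that involve the AOM array labelled Pla2g3+/+. The downstream probe read 21.3 ± 2.16 and 15.7 ± 1.64 on the vehicle arrays labelled Pla2g3+/+ and Pla2g3-/-, 0.314 (not well above background) on the AOM array labelled Pla2g3+/+ and 49.4 ± 4.95 on the AOM array labelled Pla2g3-/-. The upstream probe read 11.9 ± 1.26, 9.48 ± 1.096, 0.299 (not well above background) and 32.7 ± 3.29, so the same array was lowest and the same array highest with both probes. Between AOM pools Ptger3 was at least 39.4-fold higher in the pool labelled Pla2g3-/- by the downstream probe and at least 26.1-fold by the upstream probe. After normexp background correction, which raises low signals, the log2 value of the downstream probe was 2.57 in place of a bound of 5.30. By the downstream probe, 41 genes, or 0.238% of the 17194 with a ratio, had a higher ratio or bound. Between vehicle pools it was 1.36-fold lower in the pool labelled Pla2g3-/-, a log2 ratio of -0.44 ± 0.210.

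**Figure D2:**
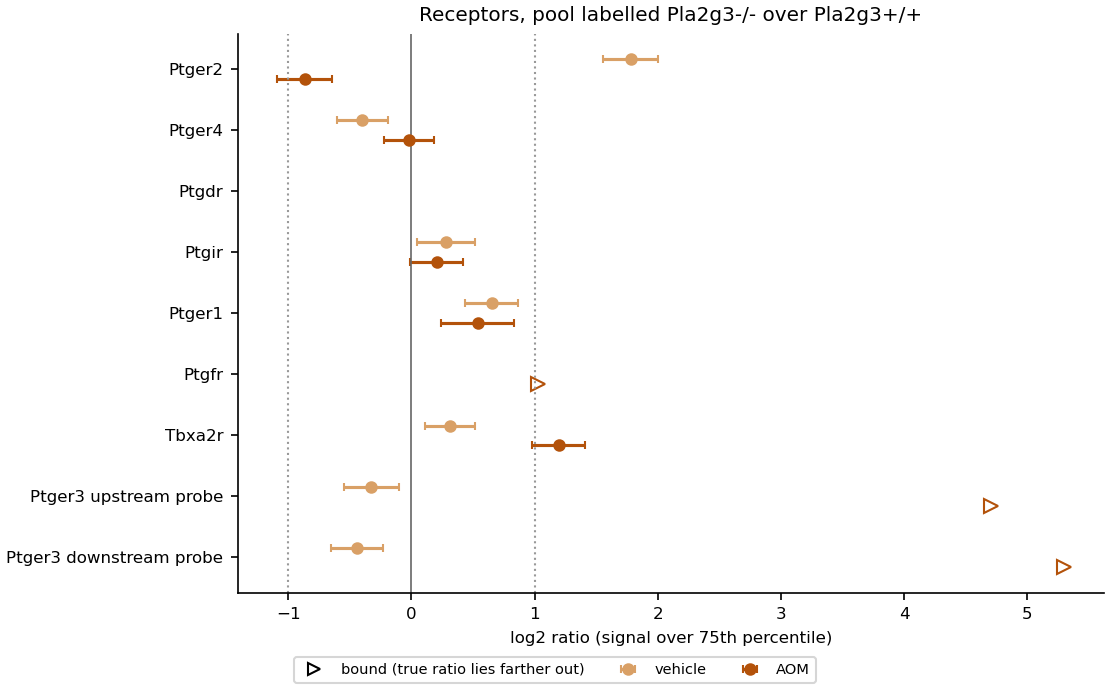
Log2 ratio of the pool labelled Pla2g3-/- over the pool labelled Pla2g3+/+ for each receptor probe, after vehicle and after AOM. Bars are the spot error of the ratio, open triangles are lower bounds (not strict), dotted lines mark 2-fold, and Ptgdr has no ratio. Ptger2 lies at 1.78 after vehicle and -0.87 after AOM, and the Ptger3 probes lie at or past 4.70 after AOM only.

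Between vehicle pools, 1 of the 6 receptors with a ratio was past 2-fold, Ptger2, where 3.24% of all genes were, 1.92% as higher and 1.32% as lower. The median log2 ratio was 0.30 over the receptors and -0.02 over all genes. Between AOM pools, 3 of 7 were past 2-fold, Ptger3, Tbxa2r and Ptgfr, all higher in the pool labelled Pla2g3-/-. Ptgfr counts only through a bound that is not strict. Of all genes, 28.0% were past 2-fold, 15.1% as higher and 12.9% as lower. The median was 0.54 over the receptors and 0.03 over all genes. Of these 3, Ptgfr and Tbxa2r were not past 2-fold after normexp background correction with quantile normalization, at log2 0.18 and 0.64, and without scaling between arrays Ptger2 joined them as lower, at -1.03, and Ptgfr left them, at 0.86, for 2 higher and 1 lower.

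The comparison of AOM with vehicle within each genotype uses the same 4 arrays again, so it is another view of the values above. In the pools labelled Pla2g3+/+, 3 of 6 receptors were past 2-fold, all lower after AOM, where 37.5% of all genes were past 2-fold, 15.1% as higher and 22.4% as lower. They were Ptger3, at least 17.0-fold lower by the downstream probe and at least 9.47-fold by the upstream probe, Ptger1, 4.83-fold lower (log2 -2.27, and -0.86 after normexp), and Tbxa2r, 3.38-fold lower. Ptger2 was 1.58-fold higher, and Ptger4 and Ptgir were at log2 -0.12 and 0.30. In the pools labelled Pla2g3-/-, 3 of 6 were past 2-fold, where 24.7% of all genes were, 9.67% as higher and 15.0% as lower. Ptger3 was 3.15-fold higher by the downstream probe and 3.45-fold by the upstream probe, while Ptger1 was 5.23-fold lower and Ptger2 3.95-fold lower. Tbxa2r was 1.83-fold lower.

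**Figure D3:**
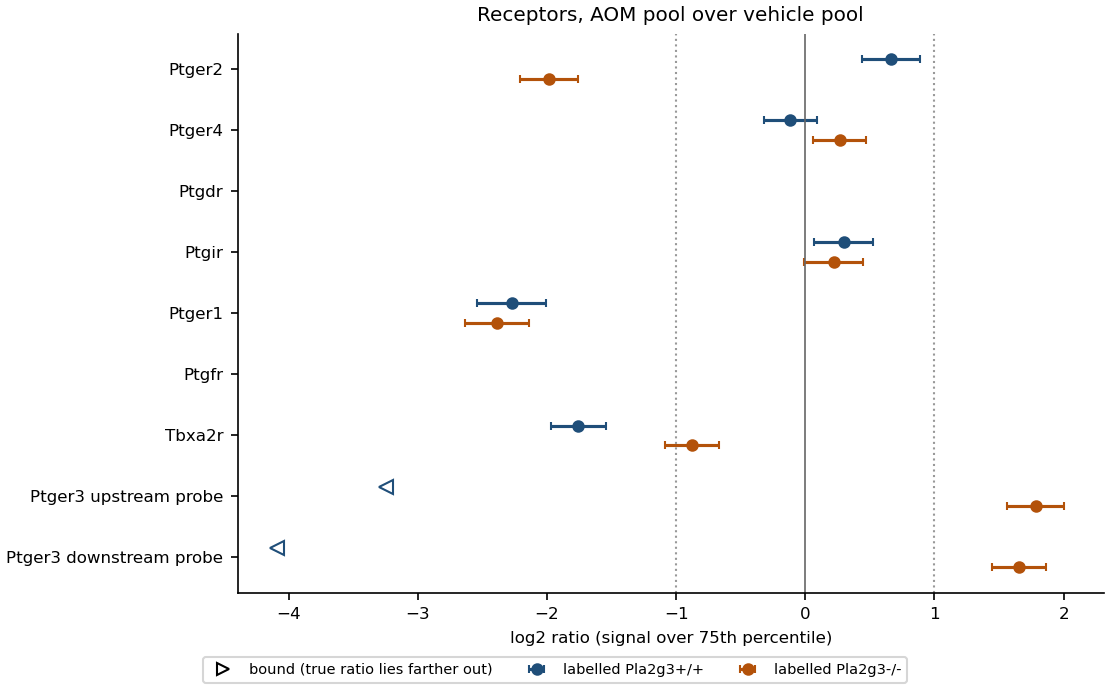
Log2 ratio of the AOM pool over the vehicle pool for each receptor probe, in the pools labelled Pla2g3+/+ and Pla2g3-/-. Bars are the spot error of the ratio, open triangles are bounds (not strict), and dotted lines mark 2-fold. Ptger1 is low in both genotypes, at -2.27 and -2.39, while the Ptger3 probes lie at or below -3.24 in the one and at or above 1.66 in the other, and Ptgdr and Ptgfr have no ratio.

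Signals were brighter on the AOM arrays before scaling, with a 75th percentile of 1312 and 1171 against 647.4 and 652.1 on the vehicle arrays. Dividing by it left the median log2 ratio of AOM over vehicle, over genes well above background on both arrays, at -0.16 in the pools labelled Pla2g3+/+ and -0.10 in those labelled Pla2g3-/-. Without scaling these medians were 0.86 and 0.75. On that scale the receptors past 2-fold were 2 higher and 2 lower in the pools labelled Pla2g3+/+, in place of 0 and 3, and 3 higher and 2 lower in the pools labelled Pla2g3-/-, in place of 1 and 2. The Ptger4 ratio of AOM over vehicle in the pools labelled Pla2g3+/+ then turned from -0.12 to 0.90, and that of Tbxa2r shrank from -1.76 to -0.74. In the pools labelled Pla2g3-/-, the Tbxa2r ratio shrank from -0.88 to -0.03. Ptger1 and Ptger3 kept their direction in both genotypes on either scale, and so did Ptger2.

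Smooth muscle is among the tissues known to carry EP3, FP and TP receptors. All 10 smooth muscle markers were past 2-fold higher in the AOM pool labelled Pla2g3-/- than in the other AOM pool, with a median log2 ratio of 4.15 and a range of 3.02 to 6.68. Their summed signal was 51874 and 54388 on the vehicle arrays labelled Pla2g3+/+ and Pla2g3-/-, 3159 on the AOM array labelled Pla2g3+/+ and 49977 on the AOM array labelled Pla2g3-/-. The AOM array labelled Pla2g3+/+ was thus the lowest for the muscle sum and for Ptger1, Ptger3 and Tbxa2r. On the AOM array labelled Pla2g3-/-, where the muscle sum was 49977, Ptger1 was also low, at 4.62 against 24.1 in the vehicle pool of its genotype. Tbxa2r read 16.6 against 30.5 in the same 2 pools. Ptger3 was higher on the AOM array labelled Pla2g3-/- than on either vehicle array, by 3.15-fold against its own genotype. The muscle sum was not, but it is carried by the brightest markers, and single markers differed from it. For AOM over vehicle in the pools labelled Pla2g3-/-, the median of the 10 muscle markers was log2 -0.10, with 4 above 0 and 6 below. Only 1 was past 2-fold higher, the myosin gene Myh11, at 3.69-fold. It read 591, 543, 22.8 and 2002 in the same order as the sums. The intermediate filament gene Synm was 1.74-fold higher. Both genes were picked after their values were seen.

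Enteric neurons and glia, which also lie in the muscle wall, gave median log2 ratios between the AOM pools of 0.94 and 1.60, with 4 of 8 and 4 of 4 markers past 2-fold higher. The 3 markers of the interstitial cells of Cajal gave a median of 1.22, with 2 of 3 past 2-fold higher. For AOM over vehicle in the pools labelled Pla2g3-/-, their median was -0.26, with 2 of 3 below 0. The other, the chloride channel Ano1, was 3.44-fold higher. In the same comparison the neuron median was -0.50, with 7 of 8 below 0 and 1 past 2-fold lower. The glia median was -0.99, with 4 of 4 below 0 and 2 past 2-fold lower. Between the AOM pools, colonocyte and goblet cell markers were also higher in the pool labelled Pla2g3-/-, with medians of 2.43 and 2.13 and all 6 and all 7 past 2-fold. Wnt target genes of colon tumors were lower there, with a median of -2.63 and 9 of 10 past 2-fold. Platelet and megakaryocyte markers had a median of -0.98, with 0 of 5 above 0 and 2 past 2-fold lower, some of them bounds. Endothelial markers had a median of -0.71, with 6 of 7 below 0 and 3 past 2-fold lower. The part of cell makeup in the Ptger3, Tbxa2r and Ptgfr differences was not tested.

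In the vehicle pools, where Ptger2 was the receptor past 2-fold, the smooth muscle median was 0.01 and the macrophage median 0.53, with 0 of 10 and 0 of 9 markers past 2-fold. All 9 macrophage markers with a ratio were above 0, from 0.10 to 0.83. The adipocyte median was 0.83, with all 5 markers that had a ratio above 0 and 1, Cfd, past 2-fold, at 2.64-fold. All 12 pancreatic acinar markers were past 2-fold higher on the vehicle array labelled Pla2g3-/-, with a median log2 ratio of 5.27. Their summed signal was 40.9 on the vehicle array labelled Pla2g3+/+, 5142 on the vehicle array labelled Pla2g3-/-, and 20.5 and 25.3 on the AOM arrays. The array with the pancreatic and higher adipocyte signals was also the one with the highest Ptger2, Ptger1 and Tbxa2r signals, and the part of these cells in them was not tested.

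**Figure D4:**
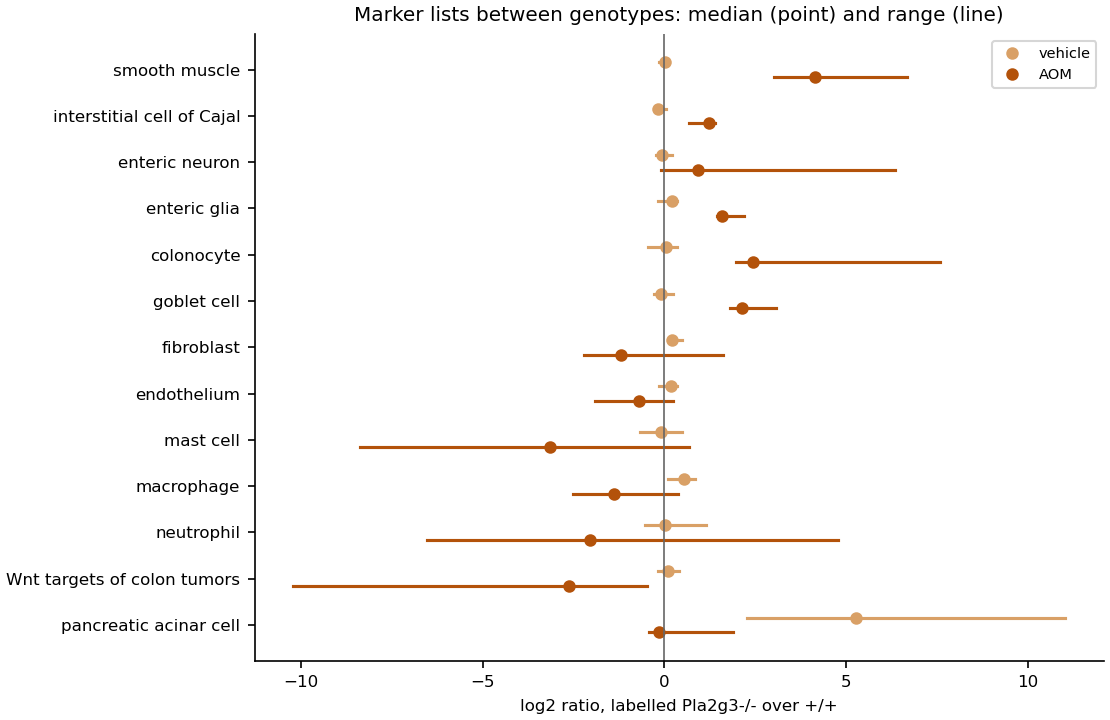
Log2 ratio of the pool labelled Pla2g3-/- over the pool labelled Pla2g3+/+ for 13 marker lists, after vehicle and after AOM; points are list medians and lines run from the lowest to the highest gene. Smooth muscle lies at a median of 4.15 after AOM and 0.01 after vehicle, and pancreatic acinar markers at 5.27 after vehicle.

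The genes that make the ligands of these receptors were followed from lists of the pathway. Of 13 synthesis genes, 3 were past 2-fold higher and 3 lower in the AOM pool labelled Pla2g3-/-, with a median log2 ratio of 0.15, so 46.2% were past 2-fold against 28.0% of all genes. Ptgs2, the inducible cyclooxygenase, read 9.51 and 8.50 on the vehicle arrays labelled Pla2g3+/+ and Pla2g3-/-, 133 on the AOM array labelled Pla2g3+/+ and 11.6 on the AOM array labelled Pla2g3-/-. It was thus high on 1 array, the one with the lowest Ptger3 and Tbxa2r signals, and 11.4-fold lower in the AOM pool labelled Pla2g3-/-. Ptgds, a prostaglandin D synthase, was 8.65-fold lower there and Tbxas1, the thromboxane synthase, 3.83-fold lower. Ptgis, which makes the prostacyclin that IP binds, was 6.26-fold higher by its brightest probe, while its other probe was at log2 0.20. The constitutive cyclooxygenase Ptgs1 stayed within 2-fold, at log2 -0.09.

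Ptges, the inducible prostaglandin E synthase, had 2 probes that differed. The brighter read 2007 and 1897 on the vehicle arrays labelled Pla2g3+/+ and Pla2g3-/- and 1292 and 1442 on the AOM arrays, a log2 ratio between the AOM pools of 0.16. The dimmer, well above background on all 4 arrays, read 9.15, 9.60, 34.4 and 8.25 in that order, a log2 ratio of -2.06. By this probe Ptges, like Ptgs2, was high only on the AOM array labelled Pla2g3+/+. Of 34 pathway and other lipid receptor genes with 2 or more probe ratios between the AOM pools, 8 had probes on both sides of 2-fold, namely Ptges, Ptgis, Gna13, Gnao1, Pde4b, Pde4d, Plcb1 and Plcb4. The counts below rest on the brightest probe of each gene.

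Of 7 genes for breakdown and transport, 3 were past 2-fold higher and 1 lower between the AOM pools, 57.1% against 28.0% of all genes. Hpgd, which inactivates prostaglandins, read 1045 and 729 on the vehicle arrays, 121 on the AOM array labelled Pla2g3+/+ and 747 on the AOM array labelled Pla2g3-/-, a 6.19-fold difference between the AOM pools. The carbonyl reductase Cbr3 read 1632, 1951, 130.0 and 1040 in the same order, the prostaglandin transporter Slco2a1 was 3.62-fold higher, and the exporter Abcc4 was 3.35-fold lower. Ptgdr2, the second and unrelated receptor for prostaglandin D2, was not well above background on any array, as Ptgdr was. Ptgfrn and Pparg, which bind the FP receptor and prostaglandin metabolites, stayed within 2-fold between genotypes.

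Downstream of the Gq-coupled receptors, 6 of 12 genes with a ratio were past 2-fold higher in the AOM pool labelled Pla2g3-/- and 0 lower, with a median log2 ratio of 1.03, where 15.1% of all genes were higher and 12.9% lower. The protein kinase C genes Prkca and Prkcb were at 2.11 and 1.98, and the phospholipase C genes Plcb4 and Plcb1 at 1.75 and 1.58. Of 18 genes of Gs and cyclic AMP signaling with a ratio, 3 were past 2-fold higher and 3 lower, 33.3% against 28.0% of all genes, with a median of -0.22. The adenylyl cyclase Adcy5 was 20.3-fold higher and Adcy8 at least 22.1-fold lower, the catalytic subunit Prkacb was at log2 1.91 and the transcription factor Crem at -2.32. Of the 4 Gi family genes, Gnao1, a G protein alpha subunit of neurons, was 9.88-fold higher and the other 3 stayed within 2-fold. That is 25.0% against 28.0% of all genes.

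Of 7 genes for receptor desensitization, Grk5 and Arrb2 were past 2-fold lower in the AOM pool labelled Pla2g3-/-, at log2 -1.18 and -1.19, which is 28.6% against 28.0% of all genes. Of 10 cyclic AMP phosphodiesterases, Pde3a, Pde7a and Pde4d were past 2-fold higher, at 2.13, 1.69 and 1.06, and Pde4b lower, at -1.03, together 40.0% of that list. Over all the pathway lists, 19 genes were past 2-fold higher and 10 lower of 73 with a ratio, 39.7% against the 28.0% of all genes. Their median was 0.18. Between vehicle pools, 2 of 71 were past 2-fold, Akr1c18, a hydroxysteroid dehydrogenase, at 1.40 and the prostaglandin D synthase Hpgds at -1.18, which is 2.82% against 3.24% of all genes.

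**Figure D5:**
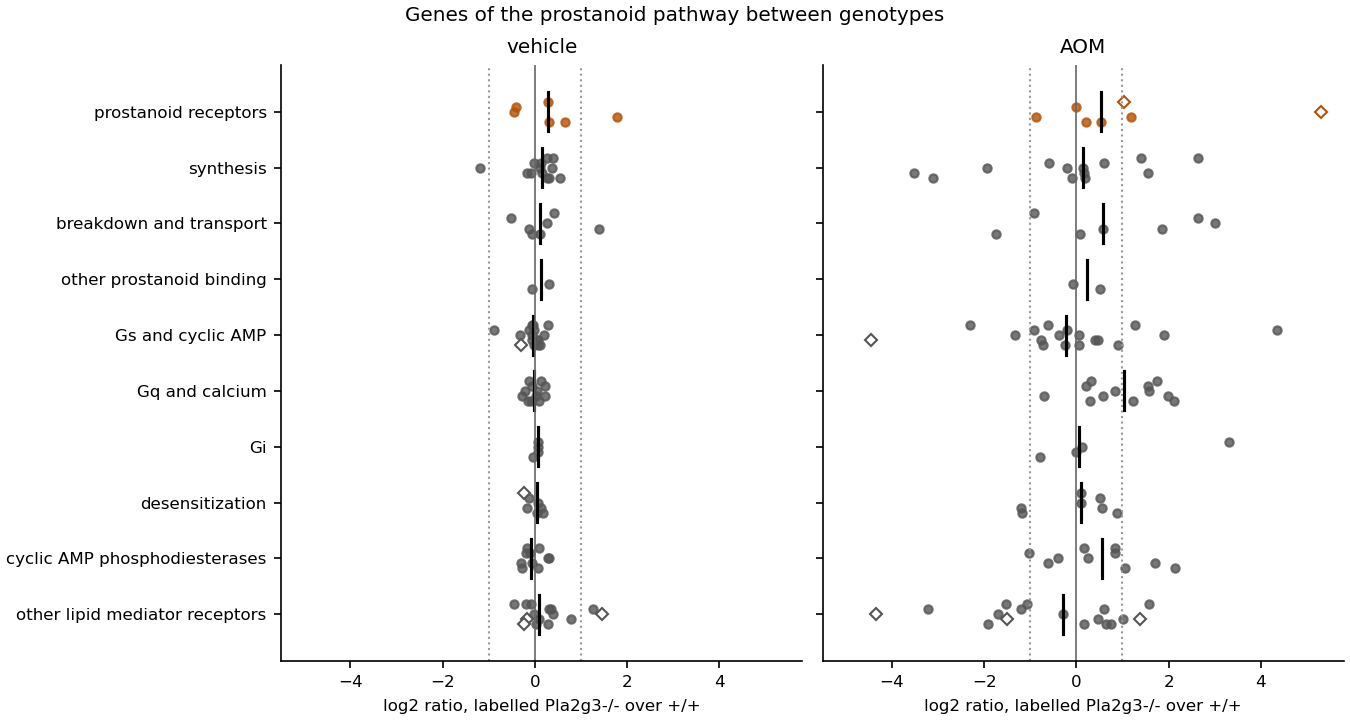
Log2 ratio of the pool labelled Pla2g3-/- over the pool labelled Pla2g3+/+ for the receptors, the lists of the prostanoid pathway and the other lipid mediator receptors, after vehicle (left) and AOM (right); circles are genes, open diamonds are bounds, bars are list medians and dotted lines mark 2-fold. Past 2-fold were 2 of 71 pathway genes after vehicle and 29 of 73 after AOM.

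Between AOM and vehicle, 14 pathway genes were past 2-fold higher and 15 lower of 74 in the pools labelled Pla2g3+/+, and 10 higher and 3 lower of 72 in the pools labelled Pla2g3-/-. These are 39.2% against 37.5% of all genes, close to that background, and 18.1% against 24.7%, below it. Without scaling the same counts were 34 and 6, and 39 and 1, and after quantile normalization the second pair was 15 and 2. In the pools labelled Pla2g3+/+, Ptgs2 was 13.9-fold higher after AOM, Abcc4 13.5-fold higher and Adcy8 at least 19.5-fold higher, while Cbr3 was 12.6-fold and Hpgd 8.66-fold lower. In the pools labelled Pla2g3-/- the same ratio of Ptgs2 was 1.37-fold and that of Hpgd 1.02-fold. Abcc4 was 4.20-fold higher, Prkcb 4.41-fold higher and Akr1c18 9.64-fold lower there.

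The receptors for other lipid mediators, lysophosphatidic acid, sphingosine 1-phosphate, leukotrienes, platelet-activating factor and formyl peptides or lipoxins, were set beside the prostanoid receptors. Of 17 with a ratio between the AOM pools, 3 were past 2-fold higher and 8 lower in the pool labelled Pla2g3-/-, with a median log2 ratio of -0.28 against 0.54 for the prostanoid receptors. That is 64.7% past 2-fold against 28.0% of all genes, of which 15.1% were higher and 12.9% lower. The 4 with the greatest difference were all lower: Fpr1 by at least 20.3-fold, Fpr2 by 9.37-fold, Lpar2 by 3.76-fold and Ptafr by 3.26-fold. Fpr1, Fpr2 and Ptafr are known from myeloid cells, most of whose markers were lower in the same pool. The median log2 ratio was -1.40 for macrophages with 8 of 9 past 2-fold lower, and -3.14 for mast cells with 8 of 10. For neutrophils it was -2.06, with 5 of 9 past 2-fold lower and 2 higher, over a range of -6.53 to 4.77. The part of these cells in the receptor values was not tested. Of the prostanoid receptors, 0 of 7 were past 2-fold lower in that pair, or 1, Ptger2, without scaling. The difference between the families rests on 2 arrays and was not tested. Between vehicle pools, 2 of 15 other lipid mediator receptors were past 2-fold, both higher in the pool labelled Pla2g3-/-. That is 13.3% against 3.24% of all genes. They were Fpr1, at least 2.75-fold higher, and Fpr2, 2.39-fold higher.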

How the data were processed

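The authors made cRNA from pooled total RNA and hybridized it, with 27.7 ng of RNA stated per array. They deposited Feature Extraction 11.5.1.1 output for 4 arrays of 1 slide (version per the submitters' processing notes). The intensity used, the processed signal, was, per the file headers, freed of background and of spatial trends on each array and not scaled across arrays. The software's error model gave its error. The deposited p-value for a spot equal to its background enters the software's call of well above background. A deposited table held the ratio of that signal to the array's 75th percentile and served as an alternative. Here log2(signal) minus each array's own 75th percentile over non-control probes was used. Spots flagged as outliers or controls were left out, and spots of a probe were averaged. Where a signal was not well above background on 1 array, the ratio was a bound against the higher of that signal and the lowest signal well above background on the array. A spot can read above that lowest signal without the call, so these bounds are not strict. Genes were named from the arrays' accessions and gene names through a RefSeq table (GRCm38.p6), used for names only. The brightest probe represented a gene, and all receptor probes are reported. Groups came from the sample labels. With 1 array per group no test was made, and the number of arrays limits the precision. The ratio step was tested on simulated data. The members and gene lists were chosen with earlier results of these data known. Named beside the receptors were up to 4 genes past 2-fold per pathway list and comparison, with Ptgs1, Ptgs2, Ptges, Hpgd and Ptgdr2 always, the 4 most different other lipid mediator receptors, Pla2g3, and the 3 genes most like each receptor, of which 1 is not reported here. Tools were R 4.3.3 with limma 3.58.1, Python 3.11.15, pandas 2.3.3, numpy 2.4.6 and matplotlib 3.10.9. Alternatives were quantile, median or no scaling, normexp with an offset of 50, other filters on dim probes, the mean over probes, the deposited table and thresholds of 1.5-fold and 4-fold.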

Additional observations from a re-analysis of the deposited data

Results flagged for a closer look

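Ptger2 and Ptger3 moved in opposite directions under the same contrast. For Ptger2 the log2 ratio of the pool labelled Pla2g3-/- over the pool labelled Pla2g3+/+ was 1.78 after vehicle and -0.87 after AOM, and that of AOM over vehicle was 0.66 in the pools labelled Pla2g3+/+ and -1.98 in the pools labelled Pla2g3-/-. For Ptger3 the ratio of AOM over vehicle was at most -4.09 in the pools labelled Pla2g3+/+ and 1.66 in the pools labelled Pla2g3-/-. With 1 array per group neither difference was tested.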

How the results depend on the processing

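No paired analysis was possible because each group held 1 array and the labels give no replicate numbers, and for the same reason no array could be left out. Of 25 receptor ratios, 10 were past 2-fold, and all 77 values of these 10 under other settings kept their sign, with 6 no longer past 2-fold. Among the 120 values of the other ratios, 5 came past 2-fold and 4 changed sign, all of them Ptger4. The Ptger3 value between AOM pools ranged on the log2 scale from 2.57 after normexp to 7.30 without the filter on dim probes, which is a ratio to a spot not well above background and no bound, and the Ptger2 ratio between vehicle pools from 1.05 to 1.88. Ptger1 in AOM over vehicle, labelled Pla2g3+/+, reached -0.86 after normexp. The cause of these shifts was not tested.

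Receptors past 2-fold between vehicle pools numbered 1, with 2 at 1.5-fold and 0 at 4-fold. Between AOM pools they numbered 3 of 7. After normexp they numbered 1 of 7, where 2818 of 17233 genes were past 2-fold. With both arrays required well above background they numbered 1 of 5, where 3791 of 15484 genes were past 2-fold. At 4-fold they numbered 1 of 7, where 1828 of 17194 genes were past it. For AOM over vehicle in the pools labelled Pla2g3-/- the receptors past 2-fold numbered 3, with 5 without scaling and 1 at 4-fold. Pathway genes between vehicle pools numbered 2, with 0 after normexp, 4 with the mean over probes and 0 at 4-fold. Between AOM pools they numbered 29, with 44 at 1.5-fold and 11 at 4-fold. For AOM over vehicle they numbered 29, with 50 and 12, in the pools labelled Pla2g3+/+, and 13, with 29 and 3, in those labelled Pla2g3-/-, where no scaling gave 40. Over all genes, normexp moved the counts from 531, 4815, 6482 and 4080 to 196, 2818, 3481 and 1771 in the same order, and between vehicle pools no filter gave 1381 and the stricter one 265. Without scaling AOM over vehicle gave 7751 higher and 1231 lower in place of 2612 and 3870, and 6396 and 625 in place of 1598 and 2482. At 1.5-fold and 4-fold the all-gene counts were 1236 and 181, 7921 and 1828, 10329 and 2109, and 8116 and 740. Signal over background limits Ptgfr and Ptgdr.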

Other observations

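For each receptor well above background on all 4 arrays, the genes whose log2 values, centred over the 4 arrays, lay closest to it were listed among 14783 genes well above background throughout. The closest to Tbxa2r was Cav3, a caveolin of muscle, at a distance of 0.06, followed by Mcf2l at 0.07 and Mirg at 0.08. The closest to Ptger1 were Myrip, Mfsd6l and S100g, from 0.17 to 0.25, and among those to Ptger2 were Rbfox1 and Dock2, at 0.16 and 0.28. Ptger4 had Slc25a37, Dcaf5 and Dtx3 nearest, from 0.03 to 0.06, and Ptgir had Fam149a, Oxct2b and Rbmx, from 0.05 to 0.06. With 4 arrays, the distances are descriptions only.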
